A study of Rattus norvegicus with 10 samples.

Results

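Mitosis and G2/M genes are 43 genes whose products carry a cell from the end of DNA replication through mitosis to the division of its cytoplasm. Members were found on the arrays by matching the transcript accession of each probe to the gene symbols of RefSeq. Of the 43 genes, 33 had a named probe (41 probes of the 41012 on each array), and 10 (Top2a, Mki67, Cdc25c, Melk, Cdca3, Bub1b, Ndc80, Nusap1, Ect2 and Anln) were not analysed here. The measurements were made on liver RNA of male Sprague Dawley rats, with a one-colour Agilent array of the rat transcriptome for each rat. The control group (3 rats) received the solvent, propylene glycol. The SM group (4 rats) received a dose of 3.5 mg/kg of the alkylating vesicant sulfur mustard under the skin, which is 0.7 of the LD50. The SM + MSTF group (3 rats) received that dose and, 1 h later, 120 mg/kg by stomach tube of MSTF, which combines the salvianolic acids of Salvia miltiorrhiza roots with flavonoids extracted from Anemarrhena asphodeloides. All livers were taken 24 h after SM. No group received MSTF without SM, so the effect of MSTF alone cannot be told apart from its effect after SM, and an age of the rats is not given in the sources used here.

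Most hepatocytes of an adult liver are out of the cell cycle and enter it when tissue has been lost, so transcripts of mitosis come from a small share of the cells. The genes are switched on late in the cycle: Cdk1 bound to a B-type or A-type cyclin starts mitosis, the Aurora and polo kinases build the spindle, the checkpoint proteins hold the chromosomes until each is attached, and the anaphase-promoting complex with Cdc20 then releases them. Between divisions their promoters are held silent by the DREAM complex at an element called CHR, and NF-Y bound to CCAAT boxes and later Foxm1 take part in their activation. In whole tissue, fewer dividing cells and less of each transcript per dividing cell cannot be told apart.

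The RefSeq table held a promoter window (250 bases before to 50 after the start, assembly GRCr8) for 36 of the 43 genes. The letters TTTGAA or TTCGAA of the CHR element, on either strand, stood in the windows of 27 of the 36 genes (75%), against 19.7% of all 33469 windows. CCAAT, on either strand, stood in 27 of 36 (75%, against 37.5%), and both motifs stood in 22 of 36 (61.1%, against 7.95%). A match of so few letters is a description of the window and not a site of binding. The 4 windows below are examples, chosen by the values of their genes on the arrays. Cdk1, Ccnb2 and Cdc20 were among the members with lower values after SM, and Cdc25b was the exception among the members with a probe. Both motifs were not a mark of the lower members. The windows of Ccnb1 and Kif20a, also lower after SM, held CCAAT but no CHR letters, and that of Bub1, lower too, held neither. A window follows the start that RefSeq gives, and whether that start is the one used in liver was not checked here. Capitals mark the letters of CHR and CCAAT or their reverse complements, and the sequences run 5′ to 3′ along the gene.
Cdk1 (chr20:19265043-19265342, plus strand): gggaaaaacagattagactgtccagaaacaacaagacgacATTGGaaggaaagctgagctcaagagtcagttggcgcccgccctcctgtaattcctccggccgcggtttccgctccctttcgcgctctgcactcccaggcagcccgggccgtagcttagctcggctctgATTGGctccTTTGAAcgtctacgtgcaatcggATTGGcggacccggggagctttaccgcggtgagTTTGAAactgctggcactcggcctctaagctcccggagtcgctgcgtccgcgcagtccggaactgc
Ccnb2 (chr8:79981609-79981908, minus strand): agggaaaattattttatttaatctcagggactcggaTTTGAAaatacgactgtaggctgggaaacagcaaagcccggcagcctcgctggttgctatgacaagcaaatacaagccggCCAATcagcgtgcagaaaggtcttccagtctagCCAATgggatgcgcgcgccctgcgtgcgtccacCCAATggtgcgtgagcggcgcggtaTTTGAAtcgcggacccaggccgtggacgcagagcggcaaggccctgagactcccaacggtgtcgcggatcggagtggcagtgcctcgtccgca
Cdc20 (chr5:137255750-137256049, minus strand): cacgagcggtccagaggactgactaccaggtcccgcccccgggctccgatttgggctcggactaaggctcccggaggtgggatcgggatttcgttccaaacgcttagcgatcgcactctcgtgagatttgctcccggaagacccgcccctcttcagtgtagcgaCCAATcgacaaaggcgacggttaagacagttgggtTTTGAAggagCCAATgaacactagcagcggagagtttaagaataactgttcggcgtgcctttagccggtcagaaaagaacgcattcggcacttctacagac
Cdc25b (chr3:138859923-138860222, plus strand): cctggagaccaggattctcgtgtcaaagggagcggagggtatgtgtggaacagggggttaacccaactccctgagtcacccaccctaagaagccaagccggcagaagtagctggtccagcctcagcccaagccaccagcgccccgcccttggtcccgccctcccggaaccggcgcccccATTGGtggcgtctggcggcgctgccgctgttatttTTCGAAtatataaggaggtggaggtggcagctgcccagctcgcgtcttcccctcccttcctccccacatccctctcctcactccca
The window of Ccnb2 held 3 CCAAT motifs, which began 134, 101 and 68 bases before the start, and CHR letters 43 and 214 bases before it. The Cdk1 window held 3 CCAAT motifs and CHR letters 16 and 72 bases before the start. The window of Cdc20 held CHR letters 51 bases before the start with CCAAT 86 and 41 bases before it. The window of Cdc25b, whose values did not go with the other members, held both motifs as well, 36 and 71 bases before the start.

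Signals below are log2 of the background-subtracted intensity after quantile normalization over the 10 arrays. Probes were tested if all arrays of some group had them well above background, which left 22991. A probe was called at a limma adjusted p below 0.05 together with a difference of 1.5-fold or more. Between 51.9% and 61.4% of probes were well above background on an array, 0 spots were saturated, and correlations between arrays were 0.969 to 0.991. The controls and SM + MSTF replicate 3 lay on 1 slide, the 4 SM arrays on another, and SM + MSTF replicates 1 and 2 on the third. SM and its slide therefore cannot be told apart. All 10 hepatocyte markers, albumin and apolipoprotein A1 among them, were tested and 0 were called in any comparison.

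Of the 33 members with a probe, 27 were tested and 24 were well above background on all 10 arrays. Ccnf and Kif2c passed through the controls only, and Nuf2 through the control and SM arrays. Aurkb, Cenpf, Kif11, Nek2, Pbk and Prc1 have a probe but were too dim to be tested, so their values are given without a test. No member was called in any of the 3 comparisons, and none passed the F-test over the 3 groups (0 of 27, background 2.07% of probes). The smallest adjusted p of the F-test was 0.0731, for Cdc20, and 10 of 27, Kif2c among them, had an unadjusted p under 0.05 (background 17.1%).

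SM versus control asks what a dose of SM left in the liver after 24 h, and 0 of the 27 tested members were called there, against a background of 2.40% of probes. The difference of means was below 0 for 32 of the 33 members with a probe (49.6% of all probes) and for 23 of the 24 that were above background on all arrays (44.6% of such probes). Its median was -0.76 on the log2 scale over the 33 members (all 41012 probes, 0.00) and -0.80 over the 24 (0.03). The smallest adjusted p was 0.0854, for Ccnb2. At an unadjusted p under 0.05, 13 of 27 were lower (background 7.04%) and 0 were higher (background 9.37%). All SM arrays lay below all control arrays for 8 of the 33 members with a probe (background 7.99% of all probes), which were Ccnb1, Ccnb2, Ccna2, Bub1, Birc5, Kif20a, Cenpf and Nek2. The last 2 of these were not tested.

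SM + MSTF versus control used the same 3 control arrays, so the 2 comparisons share whatever those arrays hold. Again 0 of 27 members were called, where the background was 0 of 22991 probes. That background rests on SM + MSTF replicate 3, without which 1.08% of probes and 0 members were called. The remaining SM + MSTF arrays lay on another slide than the controls, so treatment and slide cannot be told apart in that setting. The difference of means was below 0 for 32 of 33 members with a probe (51.5% of all probes) and for 23 of the 24 above background on all arrays (48.7%). Its median was -0.82 over the 33 (all probes, 0.00) and -0.83 over the 24 (0.01). At an unadjusted p under 0.05, 15 of 27 were lower (background 5.17%) and 0 higher (background 4.38%), and the smallest adjusted p was 0.351, for Cdc20. The 15 include Kif2c, which passed the filter through the controls only, so its lower value there adds nothing to the count. The groups did not overlap, with SM + MSTF lower, for 13 of 33 members with a probe (background 5.70% of all probes).

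**Figure D1:**
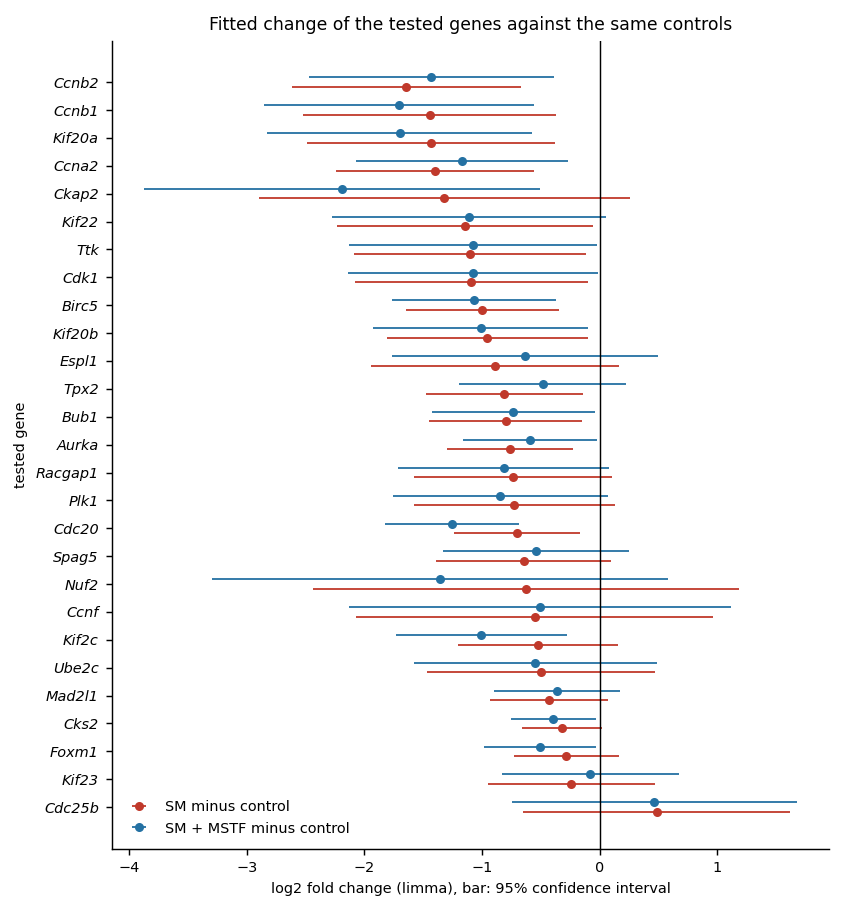
Log2 fold change of each of the 27 tested genes in SM versus control (red) and SM + MSTF versus control (blue) from the limma fit, with bars for the 95% confidence interval. Both comparisons use the same 3 control arrays. In each of them 26 of the 27 points lie below 0 (43.7% and 49.0% of all tested probes do), Cdc25b lies above it, and 0 were called. Ccnf and Kif2c, among the points below 0, passed the filter through the controls only.

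SM + MSTF versus SM asks whether MSTF moved these genes away from their level in SM alone. Of 27 tested members 0 were called, against 1.28% of probes. The fitted value was lower for 14 (53.9% of tested probes) and higher for 13, with a median of -0.02 (all tested probes, -0.02). At an unadjusted p under 0.05 only Cdc20 was lower (1 of 27, background 9.75%), and 0 were higher (background 6.18%). These 2 groups overlapped for all 33 members with a probe. The intervals were wide. For Cdk1 the log2 fold change was 0.01 with a 95% confidence interval of -0.98 to 1.01, so a difference of nearly that size in either direction is within the error of these arrays.

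The spread between rats was larger for these genes than for most probes. The median standard error of a member's log2 fold change in SM versus control was 0.38, against 0.15 over all tested probes. The residual standard deviation had a median of 0.57 over the tested members, and 5.82% of probes had a larger one. Within each group the members moved up and down together from rat to rat. Control replicate 1 held the lowest of the 3 control values for 26 of 27 tested members (36.4% of probes). SM replicate 1 held the lowest SM value for 20 (22.6%) and SM replicate 3 for 6, while SM replicate 2 held the highest for 18 (27.9%). SM + MSTF replicate 3 held the lowest value of its group for 26 (41.5%). It lay on another slide than the rest of its group, so rat and slide cannot be told apart there. These shared shifts mean that the members are not independent of each other, and the counts above have no more weight than the 10 rats behind them.

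**Figure D2:**
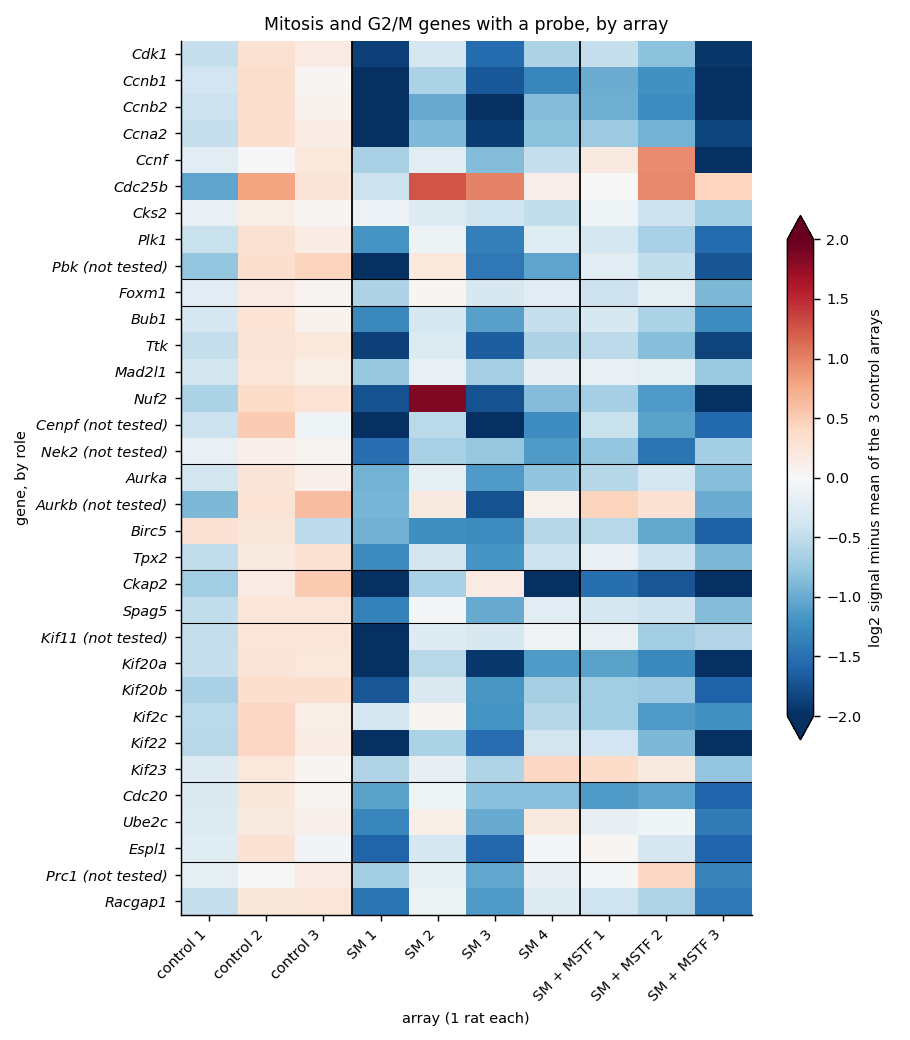
Log2 signal of the 33 genes with a probe minus the mean of the 3 control arrays (colour, cut off at 2 in either direction), by array in columns and by role in rows, with lines between groups and between roles. SM replicates 1 and 3 and SM + MSTF replicate 3 are blue for most genes, SM replicate 2 is near the controls for most, and Cdc25b does not follow. Other rows depart on single arrays, among them Nuf2 on SM replicate 2, Ckap2 on SM replicate 3 and Ccnf on SM + MSTF replicate 2.

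By array, SM + MSTF replicate 3 lay below all 3 controls for 32 of the 33 members with a probe. SM replicates 1 and 3 did so for 30 each, SM + MSTF replicate 2 for 21, SM replicate 4 for 19, SM + MSTF replicate 1 for 15 and SM replicate 2 for 12. Over the 27 tested members the counts were 26 on SM + MSTF replicate 3, 24 and 25 on SM replicates 1 and 3, and 18 on SM + MSTF replicate 2. They were 16 on SM replicate 4, 13 on SM + MSTF replicate 1 and 9 on SM replicate 2. Between 25.4% and 31.9% of all tested probes lay below all 3 controls on a treated array. The level of the members, the median over the 33 genes of the log2 signal minus the control mean, was -0.45, 0.26 and 0.15 on the control arrays. It was -1.35, -0.26, -1.16 and -0.49 on SM replicates 1 to 4 and -0.41, -0.65 and -1.54 on SM + MSTF replicates 1 to 3. SM replicate 2 and SM + MSTF replicate 1 thus lay above control replicate 1, so both treated groups overlapped with the controls. SM + MSTF replicate 3, on the slide of the controls, had the lowest level of the 10 arrays.

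Entry into mitosis depends on Cdk1, its cyclins and the kinases and phosphatases that act on them. Of 12 such genes, 9 had a probe and 8 were tested, and 0 were called. Cdk1, the kinase that starts mitosis, had log2 signals of 9.81, 10.58 and 10.44 in control, of 8.40, 9.95, 8.74 and 9.66 in SM, and of 9.82, 9.45 and 8.34 in SM + MSTF. SM replicate 2 and SM + MSTF replicate 1 reached the lowest control, so the groups overlapped. Its log2 fold change was -1.09 in SM (standard error 0.44, limma adjusted p = 0.256) and -1.08 in SM + MSTF (standard error 0.47, adjusted p = 0.517).

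Ccnb2, cyclin B2, had log2 signals of 6.85, 7.64 and 7.36 in control, of 5.03, 6.28, 4.83 and 6.42 in SM, and of 6.31, 6.02 and 5.22 in SM + MSTF. Every treated array lay below every control. The log2 fold change was -1.64 in SM, that is 3.12-fold lower (standard error 0.43, limma adjusted p = 0.0854), and -1.43 in SM + MSTF (standard error 0.46, adjusted p = 0.423). Cyclins B1 and A2, the other partners of Cdk1 in the list, were also below every control on every treated array. Ccnb1 was 2.72-fold lower in SM (adjusted p = 0.164) and 3.27-fold lower in SM + MSTF (adjusted p = 0.423), and Ccna2 2.64-fold lower (adjusted p = 0.0900) and 2.25-fold lower (adjusted p = 0.440).

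The exception was Cdc25b, a phosphatase that removes inhibiting phosphates from Cdk1. It had log2 signals of 5.45, 7.30 and 6.76 in control, of 6.08, 7.77, 7.50 and 6.60 in SM, and of 6.51, 7.46 and 6.93 in SM + MSTF. The groups overlapped, and the low control was replicate 1, as for most other members. The log2 fold changes were 0.48 (standard error 0.51, limma adjusted p = 0.690) and 0.47 (standard error 0.54, adjusted p = 0.807). Plk1, the polo kinase, was at -0.73 and -0.85, and both of its tested probes were lower (-0.62 and -0.84 on the other). Cks2, a small subunit of the Cdk1 complex, was at -0.32 and -0.40, with the smallest standard error of the group in SM (0.15). Ccnf, cyclin F, was at -0.55 and -0.51. On SM + MSTF replicates 1 and 2 it was at 5.51 and 6.28, within and above the control range of 5.10 to 5.56. The lower mean of SM + MSTF rests on replicate 3, at 2.69 and not above background. The dimmer untested probe of Ccnf differed by 0.08 and 0.18. The kinase Pbk, not tested, was lower by 1.08 in the mean of SM and by 0.81 in SM + MSTF.

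Foxm1, the transcription factor that activates many of these genes late in the cycle, had log2 signals of 7.50, 7.90 and 7.78 in control. They were 7.10, 7.76, 7.40 and 7.51 in SM, and 7.31, 7.54 and 6.83 in SM + MSTF. The groups overlapped on 2 SM arrays and 1 SM + MSTF array. The log2 fold change was -0.28 in SM (standard error 0.20, limma adjusted p = 0.533) and -0.50 in SM + MSTF (standard error 0.21, adjusted p = 0.503).

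**Figure D3:**
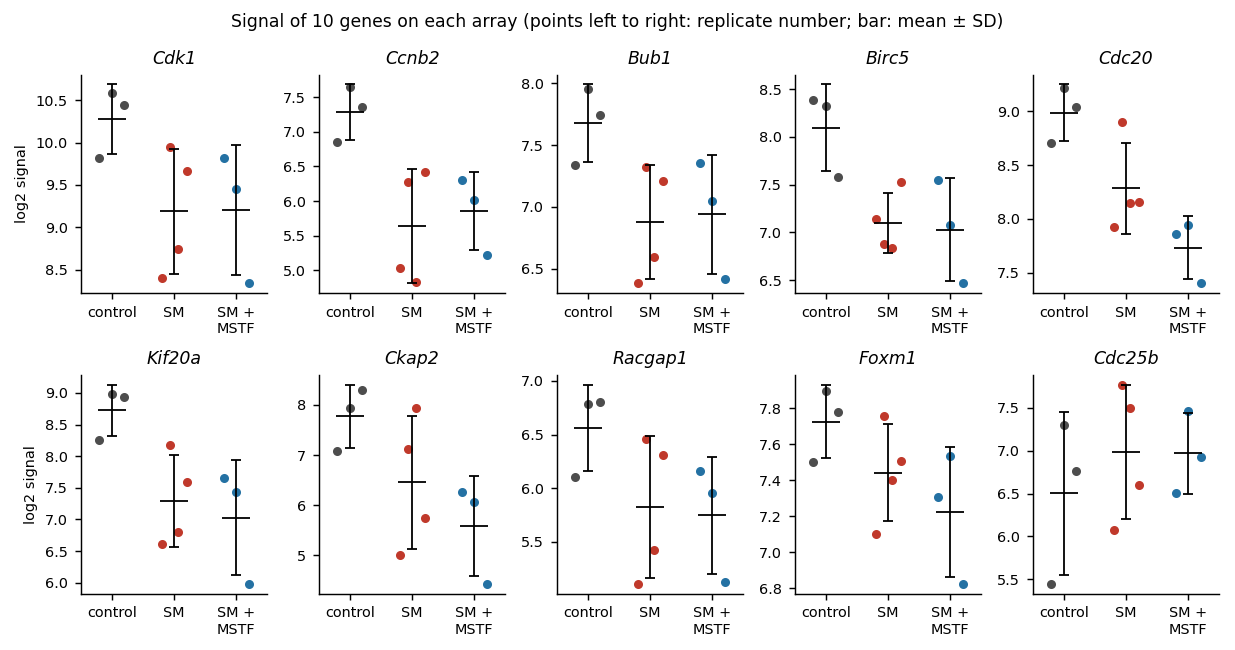
Log2 signal of 10 genes on each array, with points in order of replicate number within control (grey), SM (red) and SM + MSTF (blue) and black marks for the mean and SD of each group. The vertical axes do not start at 0 and differ between genes; for Ccnb2 and Kif20a every treated point lies below every control point, and for Cdc25b the groups lie over each other.

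At the kinetochore and in the spindle checkpoint, 6 of 8 genes had a probe, 4 were tested and 0 were called. Bub1, a checkpoint kinase, had log2 signals of 7.34, 7.95 and 7.74 in control, of 6.38, 7.32, 6.60 and 7.21 in SM, and of 7.36, 7.05 and 6.41 in SM + MSTF. The SM arrays lay below all controls, by a narrow gap for replicate 2, and SM + MSTF replicate 1 did not. The log2 fold change was -0.80 in SM (standard error 0.29, limma adjusted p = 0.201) and -0.74 in SM + MSTF (standard error 0.31, adjusted p = 0.503). The checkpoint kinase Ttk was at -1.10 and -1.08, and Mad2l1, which inhibits Cdc20 at the checkpoint, at -0.43 and -0.36. Nuf2, a subunit of the Ndc80 complex that holds microtubules, was at 8.63 on SM replicate 2, above all 3 controls (6.14, 7.15 and 7.05), while SM replicates 1, 3 and 4 gave 5.03, 5.04 and 5.92. Its standard error of 0.81 was the largest of the members tested in SM versus control. Of the dim genes, Cenpf was above background on 2 of 3 control arrays and 1 of 4 SM arrays and its means differed by -1.80. Its other probe, above background on no array, differed by -0.43 in SM. Nek2, above background on 1 control and no treated array, had differences of means of -1.01 in SM and -0.97 in SM + MSTF. Most values behind these means were not above background, so no minimum fold is given.

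The Aurora kinases and the chromosomal passenger complex correct wrong attachments and drive cytokinesis. Birc5 (survivin), a subunit of that complex, had log2 signals of 8.39, 8.32 and 7.57 in control, of 7.14, 6.88, 6.84 and 7.53 in SM, and of 7.55, 7.07 and 6.47 in SM + MSTF. All treated arrays lay below all controls, although SM replicate 4 and SM + MSTF replicate 1 came close to control replicate 3. The change was 2.00-fold lower in SM (standard error 0.29 on the log2 scale, limma adjusted p = 0.114) and 2.10-fold lower in SM + MSTF (log2 -1.07, standard error 0.31, adjusted p = 0.423). Aurka was at -0.76 and -0.59, and its activator on spindle microtubules, Tpx2, was at -0.81 and -0.49. Aurkb was above background on 2 arrays of each group and was not tested.

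Among the spindle proteins, Ckap2, which stabilizes microtubules, had log2 signals of 7.09, 7.94 and 8.30 in control, of 5.0, 7.13, 7.93 and 5.76 in SM, and of 6.26, 6.07 and 4.43 in SM + MSTF. SM replicates 2 and 3 lay within the control range, and the SM + MSTF arrays all lay below it. The log2 fold change was -1.32 in SM (standard error 0.70, limma adjusted p = 0.396) and -2.19 in SM + MSTF (standard error 0.75, adjusted p = 0.441), the lowest fitted value of a member. Ckap2 departed from the other members on SM replicate 3, where most of them were low. Spag5, a second spindle protein, was at -0.65 and -0.54.

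All 6 mitotic kinesins, motor proteins of the spindle, had a probe, 5 were tested and 0 were called. Kif20a, a kinesin of the central spindle, had log2 signals of 8.26, 8.98 and 8.94 in control, of 6.61, 8.18, 6.80 and 7.59 in SM, and of 7.66, 7.44 and 5.98 in SM + MSTF. No treated array reached the lowest control. It was 2.70-fold lower in SM (log2 -1.43, standard error 0.47, limma adjusted p = 0.158) and 3.25-fold lower in SM + MSTF (log2 -1.70, standard error 0.50, adjusted p = 0.423). Kif22 was at -1.14 and -1.11 and Kif20b at -0.96 and -1.01. Kif23, which works with Racgap1 at the midzone, differed least, at -0.24 and -0.08. Kif2c, which takes microtubules apart, was not well above background on any SM + MSTF array. The bound on its difference of means there was 1.59-fold lower, without allowance for the spread between rats. Kif2c passed the filter through the controls only, so neither this bound nor the test, in which it was not called, can show a change. Kif11 was not tested, with a difference of means of -0.67 in SM. Its other probe, above background on no array, differed by 0.33 in SM and by 0.05 in SM + MSTF.

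Exit from mitosis is set by the anaphase-promoting complex and by separase. Cdc20, the activator of that complex, had log2 signals of 8.71, 9.22 and 9.04 in control, of 7.92, 8.90, 8.15 and 8.16 in SM, and of 7.85, 7.94 and 7.40 in SM + MSTF. SM replicate 2 lay among the controls and the other treated arrays below them. The log2 fold change was -0.71 in SM (standard error 0.24, limma adjusted p = 0.171) and -1.26 in SM + MSTF (standard error 0.25, adjusted p = 0.351). In SM + MSTF versus SM it was -0.55 (standard error 0.24, adjusted p = 0.301), and the arrays of these groups overlapped. Ube2c, the ubiquitin-conjugating enzyme of the complex, was at -0.50 and -0.55 with SM replicate 2 within the control range (7.42 to 7.87) and SM replicate 4 just above it. SM + MSTF replicates 1 and 2 (7.54 and 7.61) also lay within that range, and replicate 3 was at 6.30. Espl1, separase, was at -0.89 and -0.63.

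Of the 4 genes of cytokinesis, Racgap1 was tested and Prc1 was too dim. Racgap1, a GTPase-activating protein of the midzone, had log2 signals of 6.10, 6.79 and 6.80 in control, of 5.11, 6.46, 5.43 and 6.30 in SM, and of 6.16, 5.95 and 5.13 in SM + MSTF. SM replicates 2 and 4 and SM + MSTF replicate 1 lay within the control range. The log2 fold change was -0.74 in SM (standard error 0.37, limma adjusted p = 0.371) and -0.82 in SM + MSTF (standard error 0.40, adjusted p = 0.554). Its other 2 tested probes passed the filter through the controls only, so their lower values (-0.94 and -1.01 in SM, -0.66 and -0.53 in SM + MSTF) add nothing to this. Prc1, which bundles midzone microtubules, differed by -0.52 and -0.32 in its means.

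Other genes of the cell cycle were taken from 4 further lists. Of 71 other mitosis genes, 47 had a probe and 33 were tested. In SM versus control 22 of the 33 were fitted lower (43.7% of all tested probes), and in SM + MSTF versus control 25 were (49.0%). The medians were -0.39 and -0.27, and 0 were called in either. Psrc1, a microtubule regulator, was the gene of that list called in SM + MSTF versus SM. Its log2 signals were 4.56, 4.78 and 5.09 in control, 5.54, 5.84, 5.32 and 5.67 in SM, and 4.65, 4.81 and 4.09 in SM + MSTF. The SM arrays lay above both other groups, and from SM to SM + MSTF Psrc1 fell by 1.08 (standard error 0.20, limma adjusted p = 0.0346). Psrc1 did not pass the filter through the controls, being under the dimmest well-above-background signal of control replicate 2 (4.82). On SM + MSTF replicate 3 it was near that limit for its array (4.09), and the SM arrays shared a slide of their own. Smc2, a condensin subunit, had a similar order with 0.78 in SM versus control (adjusted p = 0.131).

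Of the S phase genes, 18 were tested and 0 called, with medians of -0.06 in both comparisons with control. Rrm2 and Tyms, which make deoxynucleotides, were the pair with the smallest F-test p, at -0.53 and -0.54 in SM and at -0.94 and -0.63 in SM + MSTF. Of 15 tested regulators of G2/M transcription 0 were called, with medians of 0.12 and 0.08, and the NF-Y subunits Nfyc and Nfyb were at 0.33 and 0.12 in SM. Cdkn1a, which encodes the Cdk inhibitor p21 and is named here after its values were seen, was at -0.15 (adjusted p = 0.869) and -0.33 (adjusted p = 0.792). Among 17 tested brake and checkpoint genes the medians were -0.19 and -0.09. The most extreme values of that list were those of Cdc25a, a phosphatase that activates cyclin-dependent kinases, at -1.99 and 1.28 against control and at 3.27 between SM + MSTF and SM (standard error 1.34, limma adjusted p = 0.283). It passed the filter through the SM + MSTF arrays only, was above background on 2 of 3 control arrays and 1 of 4 SM arrays, was not called and is named after its values were seen. Ccng2, a cyclin found in arrested cells, was lower in SM + MSTF (6.61, 5.86 and 6.39) than in SM (7.15, 7.20, 7.30 and 6.98) without overlap, and it fell by 0.87 (standard error 0.17, limma adjusted p = 0.0432). Cdk2, the kinase of S phase entry, was at 0.15 and 0.40 against control.

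**Figure D4:**
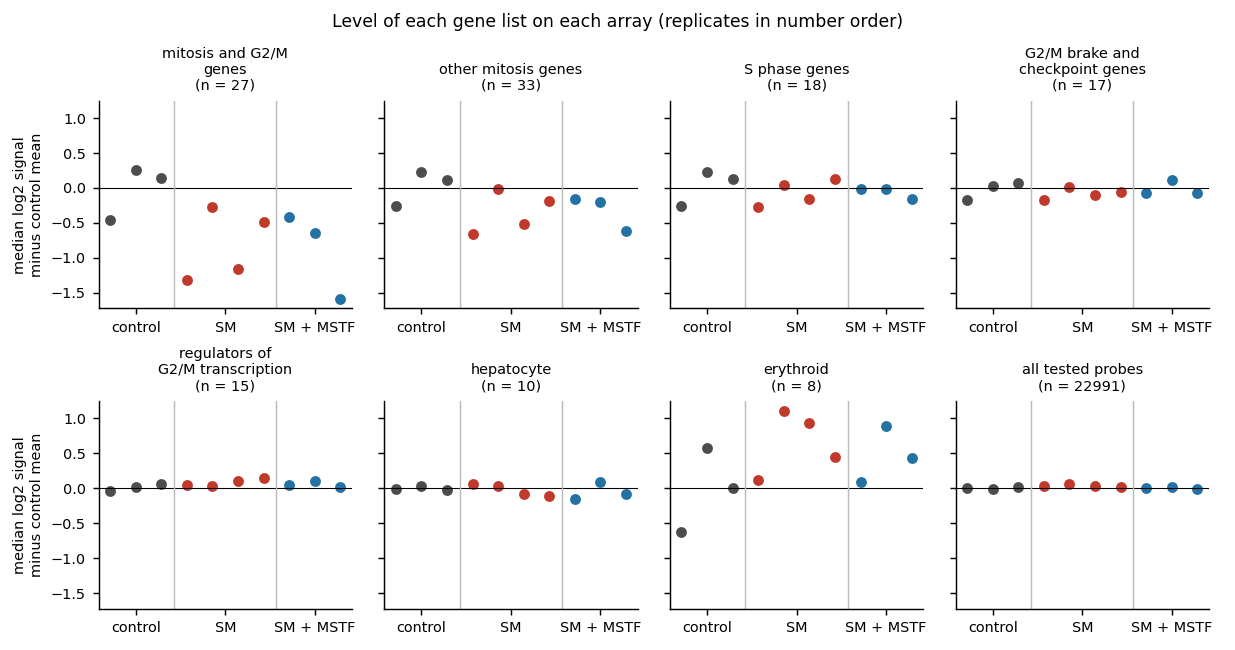
Median log2 signal minus the control mean over the tested genes of 7 lists and over all tested probes, 1 point per array in order of replicate number, in control (grey), SM (red) and SM + MSTF (blue). The points of the 27 mitosis and G2/M genes span -1.59 to 0.26, those of the 33 other mitosis genes follow them over a narrower range, and those of the hepatocyte markers stay between -0.16 and 0.09.

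Markers of other cells were read beside these values. Of 12 erythroid markers 8 were tested, and their level was -0.63 to 0.58 in control, 0.12 to 1.11 in SM and 0.09 to 0.89 in SM + MSTF, with 0 called. The level of the 7 tested natural killer cell markers (of 9) was -0.09 to 0.06, -0.97 to 0.23 and -0.60 to 0.47, and Ncr1 was above background on no array. In SM versus control 2 of these 7 were called, Klrd1 at -1.22 (limma adjusted p = 0.0274) and Klrc2 at -0.91 (adjusted p = 0.0248), and from SM to SM + MSTF Klrd1 rose by 1.15 (adjusted p = 0.0444). Of the tested markers of B, T, neutrophil, macrophage, endothelial, stellate and bile duct cells, 0 were called in any comparison. The part of such cells in the values of the mitosis genes was not tested. Hepatocyte markers had a level between -0.16 and 0.09 on all 10 arrays.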

How the data were processed

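Liver RNA of 10 rats was measured on 10 one-colour arrays, 1 per rat, grouped from the labels of the samples. The authors read the spots with Agilent Feature Extraction 10.7 (named in the submitters' processing notes). The deposited scanner files hold a background-subtracted intensity per spot and marks of its quality. They then normalized the arrays by quantiles in GeneSpring and deposited log2 values per probe. The processed intensities were the start here, and the log2 values that the authors deposited were an alternative. All 10 value columns were mapped to samples.

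Spots of controls, spots that were not uniform and population outliers were left out (Feature Extraction marked 74 to 115 population outliers per array). Intensities were quantile normalized and their log2 values averaged per probe (R 4.3.3, limma 3.58.1). Probes were kept if all arrays of some group had them well above background and each group had 2 values or more. The 3 groups entered 1 limma fit (lmFit, eBayes) without covariates, and p-values were adjusted by Benjamini and Hochberg over all 22991 probes. Of 41012 probes, 17512 were named through an accession in the RefSeq table of GRCr8. A gene's value came from its probe of highest mean signal. The members, the lists and the tests were chosen with earlier results of these data known. The p-values measure the spread between arrays of a group, which hold 1 rat each. In SM + MSTF the arrays lay on different slides, so that spread mixes rat and slide.

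Values on every array are given for members called in a comparison and, by role, for the member of highest mean signal and the tested one of lowest F-test p. Values on every array for Cdc25b, which lay on the other side, and for the controls of Nuf2 were added after the values were seen. A bound (at least N-fold) was taken where a probe was well above background on no array of a group. It compares the brighter group's mean with the higher of the probe's own signal and the dimmest signal marked as well above background, array by array. A bound is given for Kif2c, which was well above background on all control arrays. The fit was tested on simulated data with known changes. Alternatives were 75th percentile scaling, the deposited log2 values, normexp (offset 50, on median signals), no filter, a filter on all arrays, marked spots kept, fits of 2 groups, other thresholds and the methods' t-test, other probes of a gene, blocks for the replicate number or the slide, and leaving out single arrays. Same-numbered arrays of different groups were compared for pairing. Promoter windows came from RefSeq and were searched for the letters of CHR (TTTGAA or TTCGAA) and of CCAAT on both strands. No coordinates of probes are given, because the build of the array design was not used here. The number of arrays limits the precision.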

Additional observations from a re-analysis of the deposited data

Results flagged for a closer look

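Of 67 sets of 4 SM values examined (members with a probe, named pathway genes and list levels), 1 had a value far from the other 3, where chance gives about 1 in 20. Kif11, a kinesin that pushes the spindle poles apart, had a log2 signal of 2.54 on SM replicate 1 and of 4.25 to 4.51 on the other SM arrays. Kif11 was too dim to be tested, and it was above background on 2 of the 4 SM arrays, so the low value lies in the range where order has little meaning.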

How the results depend on the processing

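In both comparisons with control, all 9 members that the rule gives by array kept their direction under every alternative run. Members called stayed at 0 except as follows. Without SM + MSTF replicate 3 the count in SM versus control was 1 of 27 (Ccnb1, limma adjusted p = 0.0487), near the background of 3.11% of probes. Without SM replicate 2 the F-test count was 1 (Cdc20, adjusted p = 0.0373), so leaving out 1 array gave 0 to 1 in both. With slide as a fixed block, SM + MSTF replicate 3 alone is set against the controls and is assumed to vary like the other arrays. No count is given for that fit, in which the median in SM + MSTF versus control was -1.59. At an unadjusted p under 0.05 with the fold minimum the counts were 13 (background 5.62%) and 13 (background 2.99%). By the methods' t-test they were 7 (background 4.93%) and 6 (background 1.24%), and 0 and 0 after Benjamini-Hochberg adjustment. The counts of 13 and 6 in SM + MSTF include Kif2c, which passed the filter through the controls only. The median in SM versus control ran from -0.95 to -0.42 over the alternatives, and that in SM + MSTF from -1.59 to -0.41. Over the arrays left out in turn it ran from -0.95 to -0.63 and from -1.09 to -0.51.

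In SM + MSTF versus SM 0 members were called and some directions turned. Racgap1 was at 0.014 with normexp, 0.23 as a mean over probes and 0.48 on its dimmest probe, and Cdk1 at -0.016 with slide as a random block (correlation within a slide 0.11). With arrays left out in turn, Cdk1 ran from -0.29 to 0.45, Ccnb2 from -0.058 to 0.53, Bub1 from -0.15 to 0.33, Birc5 from -0.33 to 0.21, Racgap1 from -0.32 to 0.23 and Kif20a from -0.58 to 0.25. With the replicate number as a block, 0 members were called in each comparison and 0 by the F-test, with Birc5 at 0.075 and Racgap1 at 0.081, and SM replicate 4, which has no partner in the other groups, drops out of that fit. Deviations of same-numbered arrays correlated at -0.10 to 0.17, above 0.1 in 3 of 9 pairs. Those of arrays with different numbers correlated at -0.23 to 0.18, above 0.1 in 6 of 24 pairs. No pairing by number stood out, although so few arrays cannot exclude one. The causes of these changes were not tested.

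With 1 array left out, the count of all probes called in SM versus control was lowest, at 61, without control replicate 2 and highest, at 716, without SM + MSTF replicate 3 (551 with all arrays). It ran from 0 to 248 (without SM + MSTF replicate 3) in SM + MSTF versus control and from 97 (without SM replicate 1) to 294 in SM + MSTF versus SM. The SM + MSTF arrays behind the 248 lay on another slide than the controls. Dim probes limit what can be said of the 6 untested members.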
